A study of Mus musculus with 10 samples.

Results

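The distal regions lost early were 487 stretches of open chromatin that were called in both libraries of untreated G1E-ER4 cells and were missing from most libraries made after β-estradiol. The summits of the 10 deposited peak lists, each widened by 250 bp to either side, merged into 28976 regions on chromosomes 1 to 19 and X. A region counted as distal when it lay more than 1 kb from every start of a protein-coding transcript, which held for 18667 regions. Of these, 3246 had a summit in both 0 h libraries. The 487 members were the ones among them that had a summit in at most 3 of the 8 later libraries and in at most 2 of the 4 libraries of 2 h and 6 h. They made up 15% of the 3246 distal regions of the 0 h cells. Membership was therefore chosen by the listing of peaks in these libraries, so that the listing of members over time is a description and carries no test.

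The study followed G1E-ER4 cells by ATAC-seq, an assay that reads accessible DNA from where the enzyme Tn5 can insert adaptors, at 0, 2, 6, 12 and 24 h in β-estradiol with 2 libraries per time point. G1E-ER4 is a clonal mouse erythroid line derived from Gata1-null embryonic stem cells, and every group carried the same Gata1 deletion and the same constitutively expressed GATA1 fused to the hormone-binding domain of the estrogen receptor. All groups grew in stem cell factor (SCF) and erythropoietin, the 0 h cells without β-estradiol and the others with it at 1e-07 M, and about 50000 cells were tagmented for each library. The libraries stem from 2 independent experiments, although no label ties a replicate number to a culture or a day, so the spread between libraries may be partly technical.

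GATA1 is the zinc finger factor that erythroid precursors need to mature. In precursors that lack it, the related factor GATA2 occupies many of the same sites, and GATA1 replaces it there when it becomes active. At some of these sites the gene is then switched on and at others, such as Kit and Gata2 itself, it is shut down, often with loss of accessibility at the enhancer. Distal open regions of such cells commonly hold the GATA consensus, alone or next to a CTG that is bound by TAL1 and its partners.

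Members with the most matches to the GATA consensus are shown first, and they are not typical. Of the 487 members, 158 (32.4%) held no match and 151 (31.0%) held 1. The Cntn6 region held the most matches, 6, and the Tmem38b and Ano3 regions had the highest lower 0 h score percentile among 10 members with 4 matches each. Capitals mark AGATAA or TGATAA on either strand, so that TTATCT and TTATCA are the same letters read on the other strand. Each sequence runs from 15 bases before the first match to 15 bases after the last, within 100 bp of the summit, in GRCm38.p6 (the build also called mm10).
Cntn6 (chr6:104808546-104808735, + strand): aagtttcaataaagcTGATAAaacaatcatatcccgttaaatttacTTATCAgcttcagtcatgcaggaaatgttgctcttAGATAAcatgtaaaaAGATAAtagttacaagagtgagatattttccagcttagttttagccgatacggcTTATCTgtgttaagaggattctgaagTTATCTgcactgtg
Tmem38b (chr4:53818485-53818582, + strand): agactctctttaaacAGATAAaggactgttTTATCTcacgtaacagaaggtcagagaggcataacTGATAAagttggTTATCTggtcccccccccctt
Ano3 (chr2:110806504-110806639, + strand): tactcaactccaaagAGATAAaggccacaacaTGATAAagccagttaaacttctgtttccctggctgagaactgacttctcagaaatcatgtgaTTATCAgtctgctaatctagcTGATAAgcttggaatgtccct
Cntn6, a neural contactin, and Ano3, an anoctamin, host their regions in introns, 315 kb and 45 kb from the nearest start. The Tmem38b region lay between genes, 7.54 kb from the start of this gene, which encodes an intracellular cation channel.

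The next set shows members beside genes that are known targets or partners of GATA factors in these cells. They were chosen by the lists of genes described further on.
Gata2 (chr6:88190677-88190821, + strand): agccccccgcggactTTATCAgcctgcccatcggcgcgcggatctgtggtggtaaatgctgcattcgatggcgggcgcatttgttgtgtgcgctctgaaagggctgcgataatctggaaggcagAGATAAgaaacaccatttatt
Kit (chr5:75579955-75579990, + strand): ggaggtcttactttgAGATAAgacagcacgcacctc
Il1rl1 (chr1:40418643-40418715, + strand): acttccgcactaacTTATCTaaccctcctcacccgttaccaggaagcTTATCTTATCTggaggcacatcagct
Zfpm1 (chr8:122284755-122284856, + strand): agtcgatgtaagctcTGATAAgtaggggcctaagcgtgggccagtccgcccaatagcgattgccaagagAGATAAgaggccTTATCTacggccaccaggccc
In the Gata2 region the second match stands in the composite CTGgaaggcagAGATAA, in which 8 bases separate a CTG from the GATA letters. A composite with 7 bases between, CTGgctcagcAGATAA on the − strand (chr7:126183755-126183770), was found in an intron of Xpo6, an exporter of actin from the nucleus, and that region was listed in no later library. Of the 3 matches in the Il1rl1 region, 2 share a base.

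The libraries differed in ways that touch the members. The lists held 10697 peaks (24 h replicate 2) to 19855 peaks (6 h replicate 2). Scores, given as −log10 of the q-value of a peak within its own library, had medians of 5.68 to 6.48 over the replicate 1 lists. Those of replicate 2 ran from 6.73 to 7.68, and the higher median was that of replicate 2 for 5 of 5 time points. Sequencing depth is unknown, because the lists give no read counts, and a missing peak states no more than that none was called. Of 10 promoters of erythroid or progenitor genes, 5 to 8 were listed per library, with Klf1, Epor, Zfpm1 and Nfe2 in all 10 libraries and the promoters of Gata2 and Slc4a1 in none. Of 9 promoters of genes of other cell types, 8 were listed in no library, and that of the collagen gene Col1a1 was listed in 8.

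After 0 h the members were listed unevenly between time points and between the libraries of a time point. At 2 h, 128 of the 487 members had a peak in replicate 1 and 165 in replicate 2. At 6 h, 57 members had a peak in replicate 1 and 255 in replicate 2, the largest list of the series. The 12 h libraries had 104 and 78 of them. Those of 24 h had 71 and 18. The 3246 distal regions of the 0 h cells were listed in 52.1% (24 h replicate 2) to 91.0% (6 h replicate 2) of cases in the later libraries. Thus the libraries in which the members came back most and least were also those in which the other distal regions of the 0 h cells were listed most and least.

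**Figure D1:**
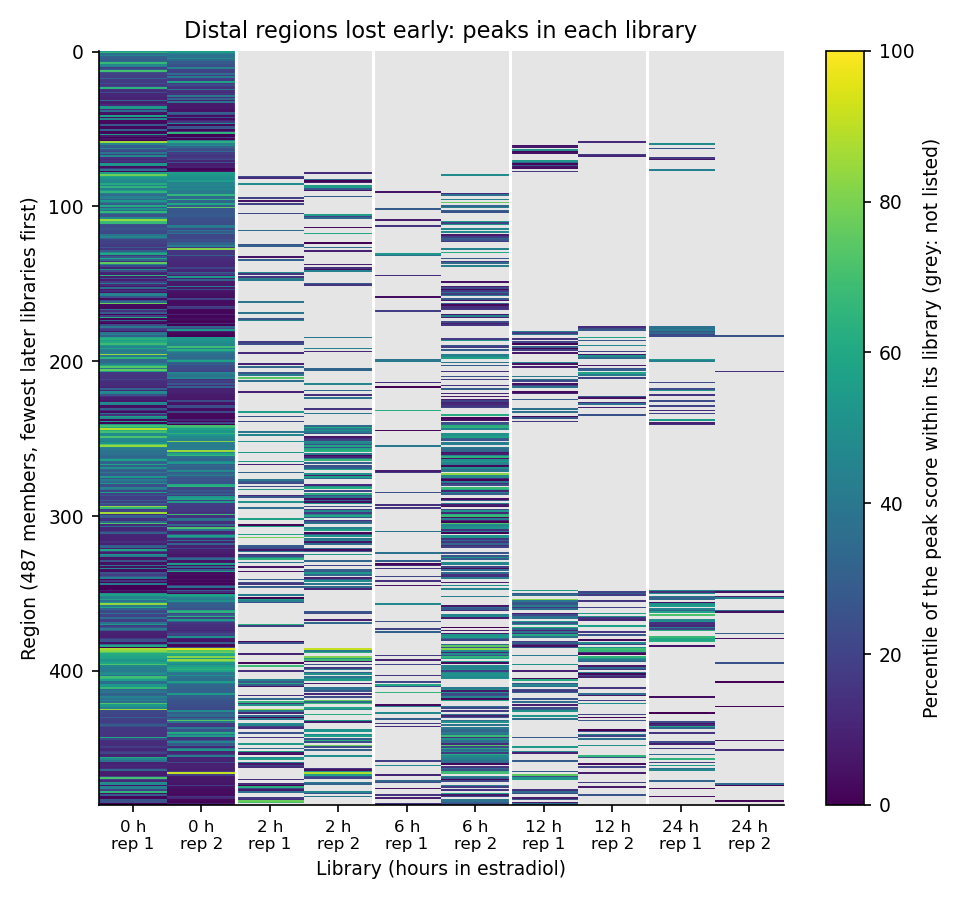
Each row is 1 of the 487 members and each column 1 of the 10 libraries, with color giving the percentile of the peak score within that library (0 to 100) and grey meaning that no peak was listed. Both 0 h columns are filled by the rule, the 6 h replicate 2 column holds 255 members and the 24 h replicate 2 column 18.

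Absence from both libraries of a time point was most frequent at 24 h. At 2 h, 216 members (44.4%) were in neither library, and 7.7% of all distal regions of the 0 h cells were. At 6 h this held for 192 members (39.4%), beside 6.44% of those distal regions. At 12 h it held for 317 members (65.1%), beside 14.3%. At 24 h it held for 406 members (83.4%), beside 27.2%. The rule fixes most of this contrast, and nothing is read from it. Only 8 members were in both 24 h libraries.

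The courses of single members were mixed. In all, 59 members had no peak in any of the 8 later libraries, 119 had a peak in 1 of them, 170 in 2 and 139 in 3. A group of 89 members was absent from all 4 libraries of 2 h and 6 h, and 30 of these were listed again at 12 h or 24 h. A further 205 members were listed in at least 1 library of 2 h or 6 h and then in none of 12 h and 24 h. The remaining 193 members were listed in both spans. A peak in 6 h replicate 2 was the only later listing of 46 members. Of all later listings of members, 360 fell in replicate 1 libraries and 516 in replicate 2 libraries. In bulk chromatin, fewer cells with an open region and less opening in each cell cannot be told apart.

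The members were weak peaks before treatment. Their median score was 4.74 in 0 h replicate 1, the 29.4th percentile of that list, and 4.52 in 0 h replicate 2, the 24.4th percentile. The 3246 distal regions of the 0 h cells had median percentiles of 56.7 and 42.2. A score above the middle of both lists was held by 26 members (5.34%), beside 32.3% of those distal regions. Sorted by the lower of both 0 h percentiles, the members were 29.1% of the distal regions from 0 to 20, 15.4% from 20 to 40, 8.51% from 40 to 60, 1.28% from 60 to 80 and 0.355% from 80 to 100. Peak strength thus moved with membership, and its part in the missing peaks was not tested.

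**Figure D2:**
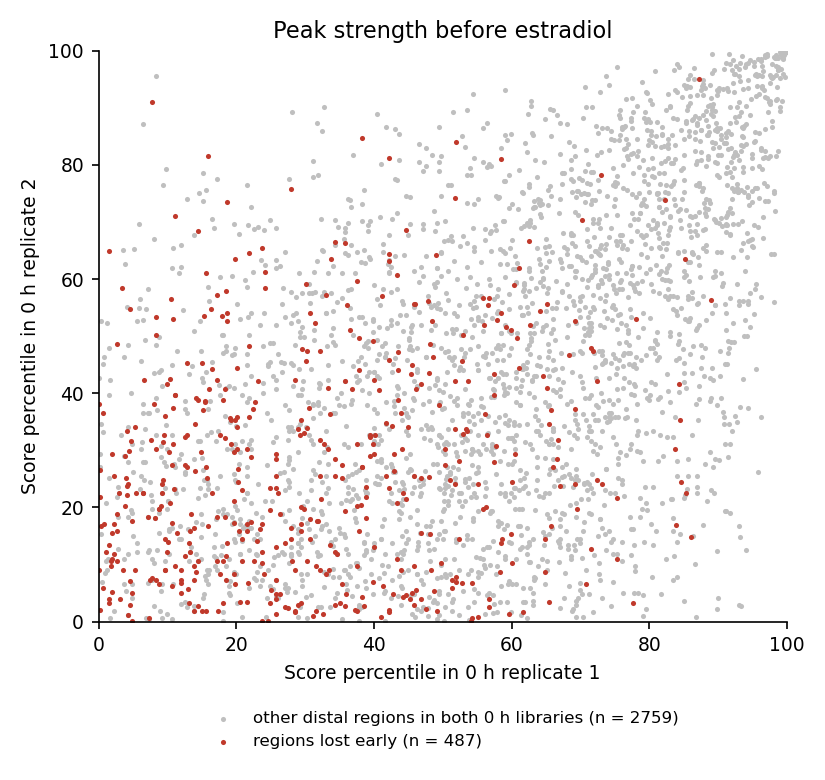
Each point is a distal region with a peak in both 0 h libraries, placed by the percentile of its score in replicate 1 (x) and replicate 2 (y), with members in red (n = 487) and the others in grey (n = 2759). Members gather at the lower left, and 26 of them lie above 50 on both axes.

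At the limits of the rule, the 139 members with 3 later libraries had median 0 h percentiles of 29.9 and 27.1, and the 82 distal regions left out for having 4 had 39.1 and 29.7. The 207 members with 2 of the 4 libraries of 2 h and 6 h stood at 30.3 and 29.1. The 70 regions left out for having 3 of these 4 stood at 38.0 and 40.7. Of promoter regions in both 0 h libraries, 69 of 6498 had the same library pattern (1.06%). The 9 members closest to the 1 kb limit had median 0 h percentiles of 13 and 31.1, and the 12 regions with the same library pattern that lay just inside it had 44.9 and 20.6.

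Members missing from every later library with the strongest 0 h peaks lay mostly far from any start. By the lower of both 0 h percentiles, the leading member absent from all 8 later libraries was the Cntn6 region (chr6:104808374-104808896), with scores of 7.11 and 7.62 in the 0 h libraries, at percentiles of 55.8 and 56.7. The region nearest to Galntl6, a member of the GalNAc transferase family, followed at 389 kb from its start (chr8:59301412-59301959), with scores of 8.23 and 7.43. Both were above the middle of both 0 h lists.

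The other 6 of these 8 were weaker. A region 694 kb from Gm21833 (chr16:82134097-82134731) scored 5.30 and 5.82. A region 164 kb from Cobl, an actin nucleator (chr11:12205427-12206024), scored 5.91 and 5.47 and held 2 GATA matches in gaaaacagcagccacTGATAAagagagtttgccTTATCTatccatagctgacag (chr11:12205659-12205712). Introns of Xpo6, St7, Nlgn1, a synaptic adhesion protein, and Atad5, which unloads PCNA from DNA, held the remaining 4, with 0 h scores of 4.74 to 6.33. Of the 8 regions, 7 had at least 1 GATA match and the Nlgn1 region had none. In the Xpo6 and Galntl6 regions, 82% and 65% of the window was annotated as repeat.

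The GATA consensus was frequent in the members. AGATAA or TGATAA, on either strand and within 100 bp of the summit, occurred in 329 of 487 members (67.6%, 95% Wilson interval 63.3 to 71.6). It occurred in 56.7% of the distal regions in both 0 h libraries and in 38.8% of all 18667 distal regions. Another 455 distal regions of the 0 h cells are called lost only by 24 h. They were listed in at least 3 of the 4 libraries of 2 h and 6 h and in neither of 24 h. No condition was set at 12 h, where 111 of them (24.4%) were in neither library. Their share with a match was 78.7% (74.7 to 82.2). Among 1216 distal regions in all 10 libraries it was 47.9% (45.1 to 50.8). These intervals cover counting error over regions, which are not replicates, and no test was made. The share among members ran below that of the regions lost only by 24 h and above that of the lasting regions, with no overlap of the intervals. The share depended on the requirement of a peak in both 0 h libraries, since it was 54.1% when 0 h replicate 1 was left out of the rule and 45.8% when 0 h replicate 2 was.

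Split by the number of later listings, which the rule used, the share of members with a match differed between the end groups. It was 81.4% in the 59 members with none, 70.6% in the 119 with 1, 71.8% in the 170 with 2 and 54.0% in the 139 with 3. The middle groups did not fall in order. The interval of the first group (69.6 to 89.3) and that of the last (45.7 to 62.0) did not overlap. These intervals again cover only counting error over regions, and the groups were not matched for 0 h strength or base composition. In bins of the lower 0 h percentile, members had a match more often than the other distal regions of the 0 h cells. The shares were 61.7% against 50.5% from 0 to 20, 76.4% against 53.8% from 20 to 40, and 76.4% against 56.7% from 40 to 60. Only 7 members lay above 60. Strength can still differ within such a bin, and base composition was not matched.

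Base composition moved with the GATA share. The 200 bp around the summit had a median of 45.5% G and C in the members, 45.5% in the regions lost only by 24 h and 52.5% in the regions of all 10 libraries. Between 40% and 45%, 79.7% of members and 76.9% of the other distal regions of the 0 h cells held a match. Between 45% and 50%, 68.8% and 67.6% did. At 50% to 55% the shares were 47.8% and 55.2%, above 55% they were 23.3% and 25.7%, and up to 40% they were 81.7% and 67.0%. The intervals of members and other regions overlapped in all 5 bins.

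**Figure D3:**
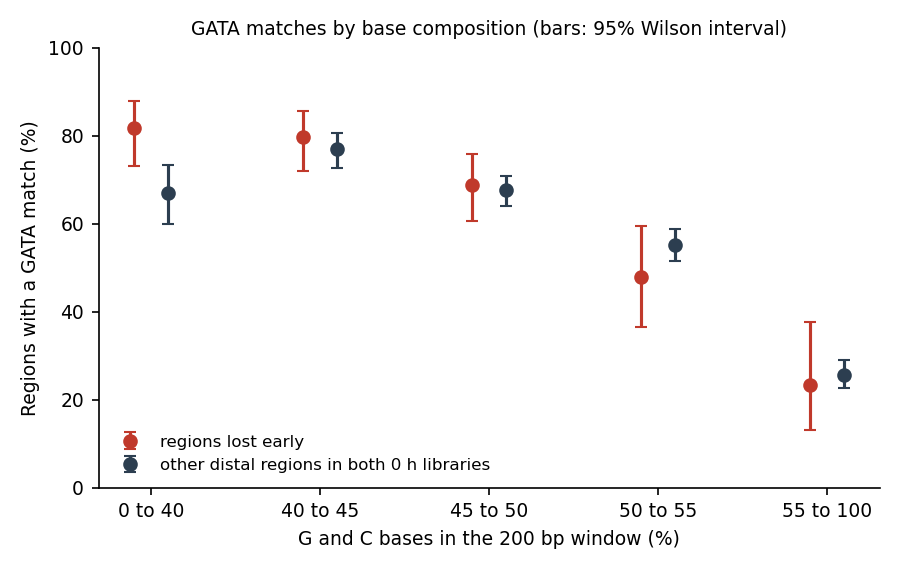
Share of regions with a GATA match (y, %) in bins of the G and C content of the 200 bp around the summit (x, %), for members (red) and other distal regions in both 0 h libraries (dark), with 95% Wilson intervals as bars. Both fall from left to right, and the bars of the pair overlap in every bin, least so up to 40%, where the shares are 81.7% and 67.0%.

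The matches also came in greater number. Of the members, 64 (13.1%) held 3 or more matches, as did 15.2% of the regions lost only by 24 h, 2.14% of the regions in all libraries and 6.28% of the distal regions of the 0 h cells. Among 178 members with at least 2 matches, 70 (39.3%) had a pair within 30 bp, and 24.7% of the 655 other distal regions of the 0 h cells with at least 2 had one. The median distance of a match from the summit was 44 bp in members, 42 bp in the other distal regions of the 0 h cells and 45 bp in all distal regions. In bins of 20 bp the density ran from 3.8 to 7.39 matches per kb in members and from 2.54 to 5.31 in the other distal regions of the 0 h cells. Number, spacing and density of matches were not split by base composition, which moved with the GATA share.

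**Figure D4:**
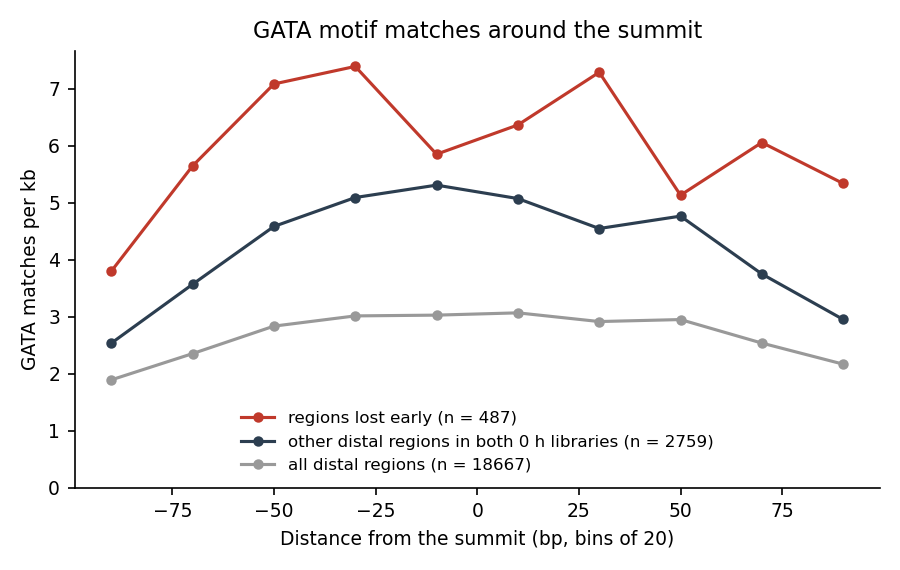
GATA matches per kb (y) in bins of 20 bp by distance from the summit (x, bp) for the members (red, n = 487), the other distal regions in both 0 h libraries (dark, n = 2759) and all distal regions (grey, n = 18667). The red line lies above the others in each bin and reaches 7.39 per kb.

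Other motifs divided the members from the lasting regions in both directions. The composite of CTG, 7 or 8 bases and then AGATAA or TGATAA, which contains a GATA match, was in 18.9% of members, 22.9% of the regions lost only by 24 h, 15.1% of the regions in all libraries and 7.40% of all distal regions. It was in 16.7% of the distal regions of the 0 h cells, which lies within the interval of the members (15.7 to 22.6). The AP-1 letters TGANTCA, bound by Fos and Jun dimers, were in 67 members (13.8%, interval 11.0 to 17.1), beside 8.35% of the regions lost only by 24 h (6.14 to 11.3, overlapping that of the members), 8.06% of those in all libraries (6.66 to 9.72) and 8.97% of all distal regions. The KLF letters CCNCNCCC, bound by the erythroid factor KLF1 and its relatives, were in 15.0% of members (12.1 to 18.4) and in 36.3% of the regions in all libraries (33.7 to 39.1), beside 22.7% of all distal regions. In the distal regions of the 0 h cells the shares were 9.52% for AP-1 and 28.5% for KLF. The AP-1 share was thus the highest in members and the KLF share the lowest, the latter together with the regions lost only by 24 h (15.6%). The fixed KLF letters are all C, and median G and C was 45.5% in both these sets and 52.5% in the regions of all libraries. The KLF share was not split by base composition.

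The ETS, RUNX and E-box shares of members were within 4 percentage points of those of all distal regions. The ETS letters AGGAAG or CGGAAG were in 32.2% of members and 33.0% of all distal regions, the RUNX letters TGTGGT in 23.4% and 20.6%, and the E-box CANNTG, which can overlap the CTG of the composite, in 73.3% and 70.1%. The MYB letters CAACNG were in 146 (30%) of members and 39.1% of the regions lost only by 24 h. The consensus of CTCF, an insulator protein, was in 16 members (3.29%), below its 8.73% in all distal regions. That share was close to the 3.20% in the distal regions of the 0 h cells and the 2.55% in the regions of all libraries. A match here is a match of letters and not a bound site.

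By position, 227 members (46.6%) were intronic, 246 (50.5%) intergenic and 14 exonic, and the 3246 distal regions of the 0 h cells were 44.5% intronic. The median distance to a start was 23.3 kb in members, 29.1 kb in the regions lost only by 24 h and 17.3 kb in the regions in all libraries. More than 100 kb lay between the region and any start for 83 members (17.0%), beside 18.5% of the regions lost only by 24 h, 8.31% of the regions in all libraries and 11.5% of the distal regions of the 0 h cells. The GATA share of intergenic members was 67.5% and that of the other intergenic regions of the 0 h cells 48.0%. In introns these shares were 69.2% and 64.4%.

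The members were spread over 450 nearest genes, and 404 of the 487 had no other member within 100 kb. Another 31 pairs and 7 groups of 3 were linked by gaps of up to 100 kb. The tightest group spanned 50.7 kb at chr12:46194085-46245354, at least 476 kb from the start of Nova1, a neuronal splicing factor, and all 3 of its members held GATA matches. Nova1 was the nearest gene of a further member and so of 4 in all. The other groups lay at Ddx4 and Slc38a9, at Ncoa4 and Timm23, between Ino80c and Galnt1, around Nefh, around Hand1 and in Mtss1. The Ncoa4 group stood in and beside the gene of the receptor that delivers ferritin for breakdown, with 1 GATA match among its 3 members.

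At the genes that GATA1 shuts down, members were frequent among the distal regions of the 0 h cells. The study captured the promoters of 19 repressed genes listed here, and these genes were the nearest or the host of 20 distal regions in both 0 h libraries, 9 of which were members. Of 33 such regions within 200 kb of their starts, 10 were members (30.3%), 8 were lost only by 24 h and 8 were in all libraries. The 22 captured activated genes were the nearest or the host of 16 distal regions in both 0 h libraries, 3 of which were members (18.75%). Within 200 kb of their starts, 5 of 51 were members (9.80%), 2 were lost only by 24 h and 30 were in all libraries. These shares stand beside 15% over all distal regions of the 0 h cells. The study chose both lists for their behavior in this cell system, so that they are not independent evidence of direction, and no test was made.

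The Kit region (chr5:75579649-75580303) lay in an intron 5.02 kb from a start of Kit, the receptor for SCF. It scored 4.71 and 5.22 in the 0 h libraries, 7.35 in 2 h replicate 2 and 18.3 in 6 h replicate 2, and was listed in no other library. Both later peaks were thus in replicate 2 libraries, and none was called at 12 h or 24 h. Scores are not scaled between libraries and their order over time is not read as a change in opening.

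The Gata2 region (chr6:88190434-88191029) stood 3.16 kb upstream of the gene of the factor that GATA1 replaces. Its scores were 6.33 and 3.0 at 0 h, 3.28 in 6 h replicate 2 and 3.61 in 12 h replicate 2, with no peak in the other 6 libraries. Of the 6 distal regions of the 0 h cells within 200 kb of the Gata2 start, it was the only member, 1 was lost only by 24 h and 3 were in all libraries. Peaks at this locus were thus lost in part.

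Genes of mast cells and basophils, lineages that share GATA2 with early erythroid precursors, were the nearest or host gene of 7 members. These were among 16 distal regions of the 0 h cells at the 29 genes of that list (43.8%, beside the same 15%). Of the genes with a member, Gzmb, Il1rl1, Kit, Ms4a2 and Rgs13 are also captured repressed genes, and only Enpp3 is not. Most of these members were thus already counted above, and the share is no separate evidence. The region at Il1rl1, the receptor for interleukin 33, stood 10.8 kb from its start (chr1:40418399-40419042), with scores of 3.74 and 5.64 at 0 h, 5.48 in 2 h replicate 1 and 6.18 in 12 h replicate 2. The region 4.09 kb from Gzmb, which encodes granzyme B, scored 3.62 and 3.37 at 0 h, 2.98 in 2 h replicate 2 and 3.81 in 6 h replicate 2. Each thus came back in a single library of 2 later time points.

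A pair of members stood 7.82 kb and 23.3 kb from Rgs13, a regulator of G-protein signaling. The nearer scored 7.93 and 6.98 at 0 h, then 4.04 in 6 h replicate 2 and 3.41 in 12 h replicate 1. The farther scored 8.76 and 6.39 at 0 h, then 4.18 in 2 h replicate 1 and 1.94 in 12 h replicate 1. These 2 regions were among the stronger members, at percentiles of 62.7 and 68.4 in 0 h replicate 1.

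The region 1.70 kb from Ms4a2, the β chain of the high-affinity IgE receptor, scored 5.07 and 3.67 at 0 h, 4.89 in 2 h replicate 2 and 1.38 in 6 h replicate 2. An intron of Enpp3, a basophil surface enzyme, held a member with 0 h scores of 3.62 and 3.20, and later peaks in 6 h replicate 2 (3.13) and 12 h replicate 2 (4.98). None of these 7 members had a peak at 24 h, as was the case for 83.4% of all members. Outside this list, Tespa1, a lymphocyte signaling gene, held a member in an intron with later peaks at 2 h only (4.64 and 5.42). The member nearest to Etv5, an ETS factor gene, stood 77.9 kb away in an intron of Dgkg and was listed in 6 h replicate 2 (3.70) and 24 h replicate 2 (3.74).

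Members at erythroid genes numbered 7, among 29 distal regions of the 0 h cells at these genes (24.1%, beside 15% over all such distal regions), and 12 of the 29 were in all libraries. Zfpm1, which encodes the GATA1 cofactor FOG1, held 2 in its introns. The one 2.69 kb from the start (chr8:122284497-122285190) had 3 GATA matches, scored 5.86 and 6.43 at 0 h and was listed later in 2 h replicate 2 alone (7.5). The other had 2 matches, scored 4.28 and 3.74 at 0 h and was listed at 2 h, 6 h and 12 h in the replicate 2 libraries (4.86, 7.62 and 5.77). The Zfpm1 promoter was listed in all 10 libraries.

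The β-globin locus held a member 4.35 kb from Hbb-bt, an adult β-globin gene, with scores of 4.97 and 4.31 at 0 h and 5.33 in 6 h replicate 2. A second, in the cluster of olfactory receptor genes beside the globin genes, was nearest to Olfr66 and was listed later at 2 h only. Both lay within 200 kb of the Hbb-bs start, where 2 of the 4 distal regions of the 0 h cells were in all libraries. Thus members also occurred at a locus whose other regions lasted.

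At Abcb10, a mitochondrial transporter needed for heme synthesis, a member with 2 GATA matches stood 7.24 kb from the start, with scores of 9.30 and 3.64 at 0 h, 6.09 in 2 h replicate 2 and 13.5 in 6 h replicate 2. Car2, an erythroid carbonic anhydrase, was nearest to 2 members, each listed later in 6 h replicate 2 alone. The member 2.19 kb from Kel, a blood group antigen gene, was listed later in 24 h replicate 1 alone (2.57). An intron of Bach1, which encodes a heme-sensing repressor, held a member with later peaks in 6 h replicate 2 (4.24) and 12 h replicate 2 (3.34).

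The remaining lists held few members. At 34 transcription factors of stem and progenitor cells, 4 of 48 distal regions of the 0 h cells were members (8.33%). The Elf1 region, in an intron of this ETS factor gene, was listed in no later library and scored 3.30 and 5.14 at 0 h. An intron of Ikzf1, a zinc finger factor of lymphoid and progenitor cells, held a member with 2 GATA matches that was listed later only in replicate 2 libraries, at 2 h, 6 h and 12 h (7.97, 11.9 and 4.32). The region nearest to Tal1 lay in an exon of Stil, 18.1 kb away, and held no GATA match.

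At genes of cytokine and kinase signaling 5 of 23 distal regions of the 0 h cells were members, at Kit, at Csf1, in Inpp5d and 2 in Inpp4b, both genes of phosphatases of the phosphoinositide pathway. At myeloid and lymphoid genes 3 of 13 were, 2 of them over 100 kb from Itga4, an integrin, and 1 at 25.7 kb from Cd47, the signal against engulfment. At 25 megakaryocyte and platelet genes none of 11 was a member, while 5 were lost only by 24 h and 4 were in all libraries. The third member at a captured activated gene lay in an exon of Lpin2, with Emilin2 as its nearest start. These counts are small, and none was tested.

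The neighbors of members were compared over libraries, because the rule did not pick them. Their positions still depend on members chosen by the 0 h and later lists, and the permutations kept these members fixed. The p-values for neighbors are therefore not independent of the rule. There were 1059 other distal regions at 2 to 50 kb from a member. At 0 h, 42.4% of them were listed in replicate 1 and 26.7% in replicate 2, against 33.8% and 21.1% of the 17121 distal regions farther away. The excess near members was 8.61 and 5.58 percentage points in the 0 h libraries. It was 5.66 and 5.51 points in the 2 h libraries and 3.44 and 4.72 points in the 6 h libraries. The 12 h libraries had 3.0 and 2.82 points, the 24 h libraries 1.68 and 2.38 points. The neighbors of members were thus listed above the level elsewhere in all 10 libraries, and 7 of the 8 later libraries lay below both 0 h libraries.

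The excess was 7.09 ± 2.14 points at 0 h (SD, n = 2) and 3.65 ± 1.48 points later (SD, n = 8), a difference of 3.44 points (exact permutation test over libraries, two-sided, p = 0.0444, adjusted over 2 tests 0.0889, smallest p of the design 0.0222). Hence it did not pass the threshold of 0.05 after adjustment. With the same members, the difference was 5.17 points within replicate 1 and 1.72 points within replicate 2, where 1 library against 4 cannot reach a p under 0.2. With lists of equal size, the difference was 1.63 points (exact permutation p = 0.222, adjusted 0.222). Without 0 h replicate 1 it was 0.392 points and without 0 h replicate 2 it was 0.690, with members then chosen from the other 0 h library alone.

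A trend over hours was examined after these values had been seen. The members around which it was measured came from the same lists. Its p-values are therefore not independent of the rule and decide nothing. The excess fell with time in β-estradiol over the 10 libraries, with Pearson's r = −0.842 (permutation p = 0.00143, adjusted over 5 relations 0.00715) and Spearman's rho = −0.960 (permutation p = 0.0001, adjusted 0.0005). Without the 2 libraries farthest from the median time, those of 24 h, r was −0.853, and it was −0.846 within replicate 1 and −0.936 within replicate 2. The trend was not examined with lists of equal size, where the 0 h difference was 1.63 points. Nor was it examined with members chosen without 0 h replicate 1 or 2, where that difference was 0.392 or 0.690 points.

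Neighbors that were themselves in both 0 h libraries were left out in a further comparison, also added after the data had been seen. The excess of the remaining 858 neighbors of members over distal regions far from any such region was 5.34 ± 3.86 points at 0 h (SD, n = 2) and 2.78 ± 1.86 later (SD, n = 8; exact permutation p = 0.111, adjusted over 3 tests 0.167). Within replicate 1 it was higher at 0 h by 5.35 points, and within replicate 2 it was −0.235 points, so the relation did not hold within both. The 4111 neighbors of other distal regions of the 0 h cells stood at 2.97 ± 2.46 points at 0 h and 3.61 ± 1.59 later (exact permutation p = 0.644). The difference between both kinds of neighbors was 3.20 points (exact permutation p = 0.0667, adjusted 0.167), which did not pass the threshold.

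Over hours, the same 858 neighbors gave r = −0.650 (permutation p = 0.0419, adjusted 0.0740) and rho = −0.788 (permutation p = 0.0109, adjusted 0.0243). Their difference from the neighbors of other distal regions gave r = −0.646 (permutation p = 0.0444, adjusted 0.0740) and rho = −0.763 (permutation p = 0.0146, adjusted 0.0243), with r at −0.848 without the 24 h libraries. The rank measure thus passed the threshold and the linear measure did not. These p-values too depend on members chosen by the same lists, and no conclusion is drawn from them. For the neighbors of other distal regions r was −0.0968 (permutation p = 0.786) and rho 0.0492 (permutation p = 0.918).

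**Figure D5:**
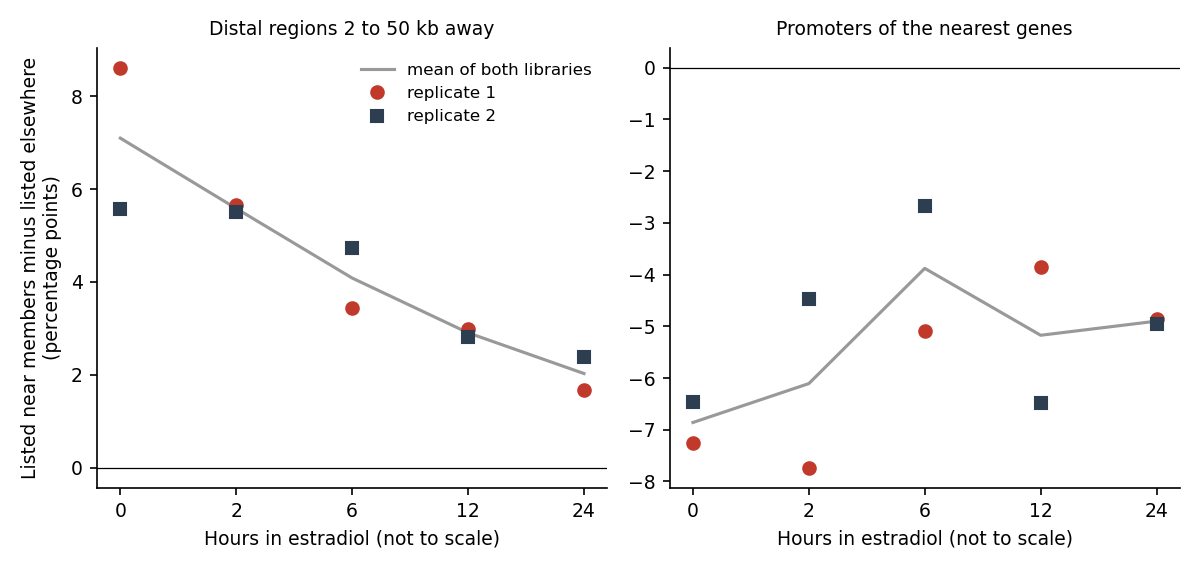
Share listed near members minus share listed elsewhere (y, percentage points) by hours in β-estradiol (x, not to scale) for distal regions 2 to 50 kb from a member (left) and for promoters of the nearest genes (right), with 1 point per library and lines for the mean of both. On the left the means run from 7.09 at 0 h to 2.03 at 24 h, and on the right all 10 libraries lie below 0 without a common direction.

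No fall after 0 h was detected at the promoters of the genes nearest to members. There were 396 promoter regions of these genes, and the share listed was below that of the other 9913 promoter regions in each of the 10 libraries. The deficit was −7.25 and −6.47 points in the 0 h libraries, and it ran from −7.74 to −2.67 points in the later ones. The mean was −6.86 ± 0.556 points at 0 h (SD, n = 2) and −5.01 ± 1.54 points later (SD, n = 8), a difference of −1.84 points (exact permutation p = 0.222, adjusted 0.222). With lists of equal size the difference was positive, at 2.00 points (exact permutation p = 0.156, adjusted 0.222).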

How the data were processed

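ATAC-seq peak lists of 10 G1E-ER4 libraries (5 time points, 2 libraries each) were used, with groups and replicate numbers read from the sample titles. Reads were aligned to mm10 with unique positions kept. The methods name Bowtie2, whereas the submitters' processing notes name Bowtie 1.0.0, Picard and MACS2, and the names inside the lists carry bowtie1. Peaks were called per library without a fragment model. A shift of reads for the Tn5 cut is not given in the sources used here, which leaves summits uncertain by some bases. The deposited score is −log10 of the q-value that the authors' peak caller gave a peak in its own library. It is not scaled between libraries, so the main results used ranks within a list and presence. Scores of single regions and the medians of lists are quoted as deposited. An alternative applied a score of at least 3 to all lists. No counts accompany the lists, and the depth per library and the precision it would give are unknown.

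Summits on chromosomes 1 to 19 and X were widened by 250 bp and merged where windows overlapped. Regions were annotated with 54050 protein-coding transcript starts of GENCODE M21, and consensus letters were searched on both strands within 100 bp of the mean position of the summits of a region, called its summit. Shares carry 95% Wilson intervals. Nearby distal regions and promoters of nearest genes were compared between 0 h and later libraries with a two-sided exact permutation test over libraries (45 arrangements) and Benjamini-Hochberg adjustment. The members were not chosen again in each arrangement. Regions named were the 8 members absent from all later libraries with the highest lower 0 h percentile, 3 with the most GATA matches (ties broken by the lower 0 h percentile), members at genes of 8 lists, members within 200 kb of captured repressed genes and the groups of 3. The members, lists and tests were chosen with earlier results of these data known, and the time trend and the comparison without regions of both 0 h libraries were added after seeing the values. Alternatives varied the widening, list size, score, distance, transcript starts, rule limits and libraries. Merging, the rule, the motif search and the permutation test were tested on simulated data. Python 3.11.15, NumPy 2.4.6, pandas 2.3.3 and SciPy 1.17.1 were used.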

Additional observations from a re-analysis of the deposited data

How the results depend on the processing

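The number of members stayed within 1.5 times of 487 under 14 of 20 alternatives. It was 59 when no later listing was allowed, 507 to 2530 when a library was left out, with 1220 and 2530 without 0 h replicate 1 and 2 and 738 without 6 h replicate 2, and 2343 or 1113 from replicate 1 or replicate 2 libraries only. The GATA share was 81.4% in the 59 members, 45.8% to 69.6% when a library was left out, 47.9% and 50.4% from replicate 1 or replicate 2 libraries only, and 48.0% in a window of 100 bp, which holds fewer bases. The intronic share ran from 45.8% to 50.8% over its 20 alternatives.

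The 0 h excess of nearby distal regions kept its sign under all 24 alternatives, from 0.392 to 9.72 points. It passed the threshold with a score of at least 3 (4.44 points), distal beyond 5 kb (4.48), no later listing (9.72) and a nearby range of 2 to 20 kb (5.30), each with an adjusted exact permutation p of 0.0444. Over all 24 the adjusted p ran from 0.0444 to 1. The promoter difference turned positive with lists of equal size (2.00 points) and with distal beyond 5 kb (0.663), where the cause was not tested, and its adjusted p ran from 0.0556 to 1. The GENCODE basic set of starts, tried after seeing the data, gave 494 members.

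The differences between replicates correlated weakly, by 0.0210 to 0.0908, over the 10 pairs of time points. The replicate number still carried a shift, with the higher median score in replicate 2 at 5 of 5 time points. With the replicate number as a block, the differences stayed at 3.44 points (exact permutation p = 0.0400, adjusted 0.0800) and −1.84 points (p = 0.280), and no call changed. The lists limit what can be said: a region counts as lost when no peak was called, without a measure of signal, and most members stood low in both 0 h lists.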
